A study of Mus musculus with 18 samples.

Results

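The genes described here mark the enteric nervous system and the pacemaker cells of the gut wall. They were chosen as a fixed list of 29 symbols that mark neurons (20 genes), glia (6 genes) and interstitial cells of Cajal (3 genes), out of 54532 genes in the count table. All 29 were found by symbol, and 28 had enough counts to be tested. The list was read in whole jejunum of C57BL/6 mice aged 8 to 12 weeks, sequenced as bulk RNA. The FLASH group (7 libraries) received 15 Gy to the whole abdomen in 1 fraction at an ultra-high dose rate. The CONV group (5 libraries) received the same dose at a conventional rate. The control group (6 libraries) was not irradiated. Irradiated tissue was taken 16 h after the dose, and all groups shared the strain, the tissue and the extraction. No transgene, mutation or drug is named for any group. Nothing in the labels ties a library to a mouse, and p-values measure the spread between libraries, which may be technical in part.

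The enteric nervous system is the gut's own network of neurons and glia, held in a plexus between the muscle layers and another under the mucosa. Its excitatory motor neurons use acetylcholine and tachykinins, and its inhibitory motor neurons use nitric oxide and vasoactive intestinal peptide. Enteric glia surround the neurons and also lie in the mucosa, and interstitial cells of Cajal generate the slow waves that pace the muscle. Many of these genes are also known from other cells of the gut wall: Tac1, Ret, Uchl1 and Snap25 from enteroendocrine cells, Chat from tuft cells, Kit from mast cells, Ret from innate lymphoid cells and Hand2 from muscle and its surrounding mesenchyme. In bulk RNA, fewer cells of a type and less RNA per cell cannot be told apart.

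Of the 28 tested members, 7 passed in FLASH against control: Vip, Npy, Nos1, Elavl3, Ngfr and Etv1 fell and Gfap rose. In CONV against control 1 passed, Kit, which fell. In FLASH against CONV none passed. A gene passed when its adjusted p in the edgeR quasi-likelihood test was at most 0.05, with the Benjamini-Hochberg adjustment over 16257 genes. The share of members that passed was 25.0% in FLASH against control, where 37.7% of all tested genes passed (21.0% lower and 16.7% higher). It was 3.57% in CONV against control, where 22.2% of all genes passed (12.0% lower). In FLASH against CONV, 19.8% of all genes passed. Each share of the members lay below that of all genes, so the counts alone are not a result about these genes. Each value was also recomputed in up to 28 alternative settings of scaling, filter, test and left-out library. The members are scarce transcripts, and 17 of the 28 averaged at least 1 CPM, the estimated count scaled by library size.

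The 2 neuropeptide genes that fell after FLASH, Vip and Npy, are shown first by the sequence just before their start sites, because both moved the same way and the Vip promoter is a classical target of cyclic AMP signalling. The windows hold the 250 bases upstream of the RefSeq start site, 5′ to 3′, on the plus strand of GRCm38.p6. Capitals mark TGACG, the core of the cyclic AMP response element, searched on both strands. The Vip window is chr10:5638968-5639217 and the Npy window is chr6:49822460-49822709.
Vip: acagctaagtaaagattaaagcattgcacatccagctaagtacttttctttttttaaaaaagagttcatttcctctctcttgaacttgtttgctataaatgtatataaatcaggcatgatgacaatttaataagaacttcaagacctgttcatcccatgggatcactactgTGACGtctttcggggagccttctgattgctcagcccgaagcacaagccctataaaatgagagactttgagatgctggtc
Npy: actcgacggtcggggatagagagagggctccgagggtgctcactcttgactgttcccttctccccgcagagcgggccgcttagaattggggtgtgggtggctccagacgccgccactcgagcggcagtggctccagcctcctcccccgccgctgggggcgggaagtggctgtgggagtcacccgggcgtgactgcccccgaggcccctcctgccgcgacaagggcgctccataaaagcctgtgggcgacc
The Vip window holds 1 such core, which begins 79 bases before the start site, and the Npy window holds none. The core occurs in 17.8% of the 32851 windows of the same length in the RefSeq table, and in 10 of the 29 windows of the 23 members that the table lists (several genes have more than 1 window). The full palindrome TGACGTCA occurs in 1.55% of all windows and, among the members, in that of Foxd3. A match of letters is a description of the sequence and not evidence of binding.

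Vip encodes vasoactive intestinal peptide, the main peptide of inhibitory motor and secretomotor neurons (chr10:5639218-5647617 in mm10). In FLASH libraries Vip ranged from 2.55 to 11.0 CPM with a median of 5.25. In CONV it was 8.80, 13.7, 8.49, 2.03 and 8.37 CPM in replicates 2, 3, 5, 6 and 7, and in control it ranged from 13.0 to 22.0 CPM with a median of 15.7. Every FLASH library lay below every control library, while CONV 3 overlapped the control range. The log2 fold change was -1.62 ± 0.37 (SE) in FLASH against control (adjusted p = 0.00205). It was -1.03 ± 0.40 in CONV against control (adjusted p = 0.0691, and passing in 6 of 28 settings, among them DESeq2, limma-voom and without FLASH 1 or CONV 3) and -0.59 ± 0.38 in FLASH against CONV (adjusted p = 0.290). The fall after FLASH was called in all 28 alternative settings, with log2 fold changes from -2.00 to -1.46. With control 6, CONV 6 and FLASH 1 left out together, Vip was also called lower in FLASH than in CONV (log2 fold change -1.09, adjusted p = 0.0123).

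Npy encodes neuropeptide Y (chr6:49822710-49829507), which is made by subsets of enteric neurons and by sympathetic fibres. It was a scarce transcript, with 2 to 23 estimated counts per FLASH library, 5 to 25 per CONV library and 25 to 56 per control library. In FLASH it ranged from 0.0881 to 0.817 CPM with a median of 0.522. In CONV it was 0.681, 0.872, 0.633, 0.226 and 0.461 CPM in replicates 2, 3, 5, 6 and 7, and in control it ranged from 0.893 to 1.75 CPM with a median of 1.29. Both irradiated groups lay wholly below control. Npy fell in FLASH against control (log2 fold change -1.34 ± 0.40, adjusted p = 0.0130). In CONV against control the value was -1.17 ± 0.44 (adjusted p = 0.0615), and it passed in 5 of 27 settings. The groups did not overlap for Vip and Npy in FLASH against control, where 13.8% of all genes did not, and for Npy in CONV against control, where 10.4% did not. No member separated FLASH from CONV without overlap, and 8.53% of all genes did.

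Tac1, which encodes substance P and neurokinin A, the tachykinins of excitatory motor neurons, had the opposite sign to Vip and Npy. It ranged from 5.10 to 19.3 CPM in FLASH with a median of 7.34, was 11.9, 8.54, 7.41, 12.9 and 8.94 CPM in CONV replicates 2, 3, 5, 6 and 7, and ranged from 4.51 to 9.49 CPM in control with a median of 6.53. The groups overlapped, and FLASH 1, FLASH 2 and FLASH 7 were the highest FLASH libraries. The log2 fold change was 0.71 ± 0.29 in FLASH against control (adjusted p = 0.0636) and 0.58 ± 0.32 in CONV against control (adjusted p = 0.177). It passed in FLASH under DESeq2 and without FLASH 4, FLASH 5, FLASH 9 or control 6, at adjusted p down to 0.0269.

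**Figure D1:**
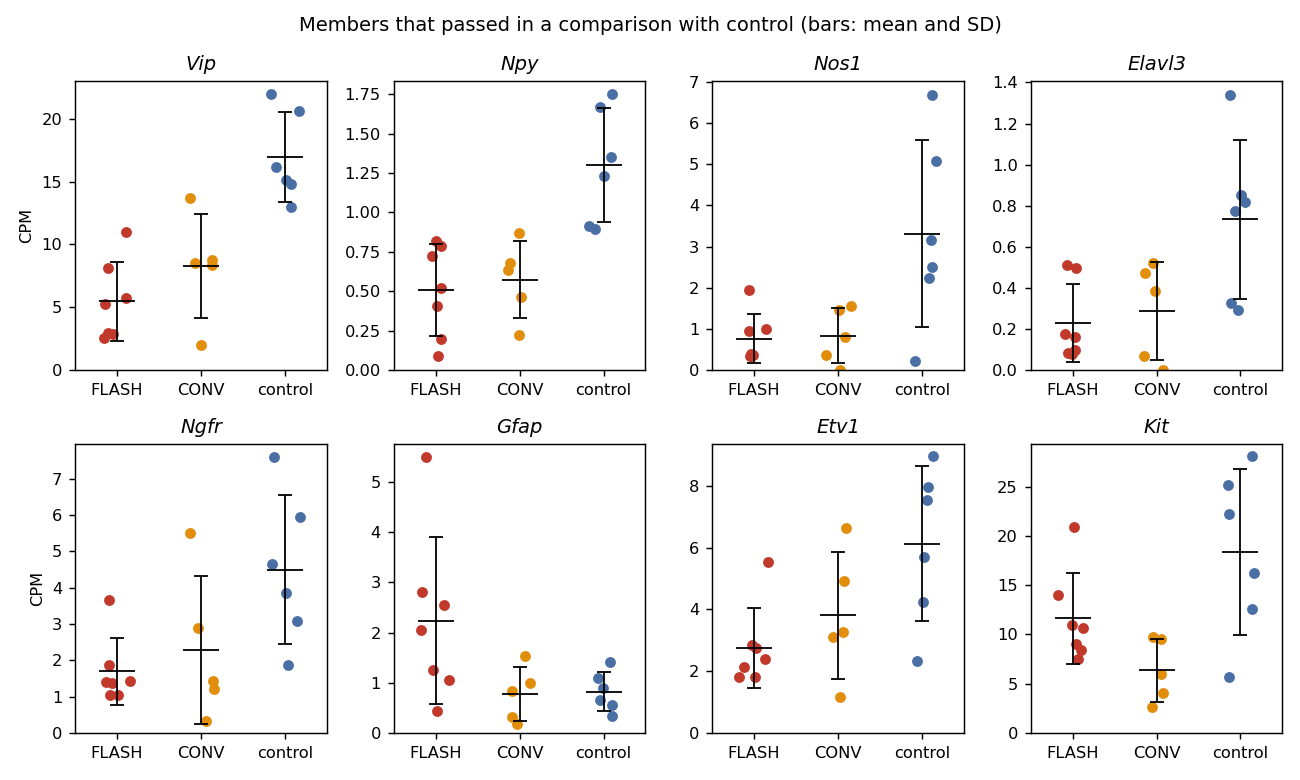
CPM of the 8 members that passed in FLASH or CONV against control, 1 point per library, with FLASH on the left, CONV in the middle and control on the right of each panel; bars give the mean and SD. All 7 FLASH libraries lie below control for Vip and Npy, and Gfap is the one gene of the 8 whose FLASH mean (2.24 CPM) is above its control mean (0.824 CPM).

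Nos1 encodes neuronal nitric oxide synthase, the enzyme of the nitrergic inhibitory neurons (chr5:117781032-117958840). It had the most negative log2 fold change of the members in FLASH against control and fell there (-2.09 ± 0.67, adjusted p = 0.0198), and the CONV value was close in size (-1.95 ± 0.75, adjusted p = 0.0663). Nos1 ranged from 0.342 to 1.95 CPM in FLASH with a median of 0.401. It was 0.367, 1.46, 1.56, 0 and 0.816 CPM in CONV replicates 2, 3, 5, 6 and 7, and ranged from 0.219 to 6.68 CPM in control with a median of 2.83. Only control 6 kept the control group from lying wholly above the FLASH group, since the other controls had 2.23 CPM or more. The call was lost under limma-voom and without control 2. In CONV it was gained without control 6 and under DESeq2, and adjusted p over all settings ran from 0.0151 to 0.150. The predicted genes Gm37028 and Gm26995 overlap Nos1 on the same and on the opposite strand, and whether counting used strand is not given in the sources used here.

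The cholinergic genes did not pass in any comparison in the main edgeR fit. Slc5a7 passed, lower, in FLASH against control with library totals and without control 6, CONV 6 and FLASH 1 together. Chat, the enzyme that makes acetylcholine, averaged 0.604 ± 0.413 CPM in FLASH, 0.460 ± 0.107 in CONV and 0.342 ± 0.142 in control (SD, n = 7, 5 and 6). Slc18a3, the vesicular acetylcholine transporter, averaged 0.404 CPM in FLASH, 0.380 in CONV and 0.678 in control. Slc5a7, the choline transporter of the nerve terminal, averaged 0.518 CPM in FLASH, 0.920 in CONV and 1.20 in control. Slc18a3 lies inside the Chat locus on the same strand of chromosome 14, so how counting split their shared reads is uncertain. Chat and the transporters thus differed in the sign of their difference from control, Chat being the one of the 3 with the higher FLASH mean.

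Among the pan-neuronal genes Elavl3 passed. Elavl3 (chr9:22015005-22052023) and Elavl4 encode the neuronal Hu RNA-binding proteins that are used to count enteric neurons. Elavl3 ranged from 0.0803 to 0.513 CPM in FLASH with a median of 0.162, which is 2 to 14 estimated counts per library. It was 0.471, 0.384, 0.521, 0 and 0.0709 CPM in CONV replicates 2, 3, 5, 6 and 7, and ranged from 0.292 to 1.34 CPM in control with a median of 0.796. Its log2 fold change was -1.63 ± 0.60 in FLASH against control (adjusted p = 0.0396) and -1.34 ± 0.66 in CONV against control (adjusted p = 0.142). The groups overlapped, and the FLASH call was lost when any of FLASH 1, 2, 4, 5 or 9 or control 1, 2, 4 or 5 was left out, with adjusted p up to 0.242 over all settings. The predicted gene Gm49318 overlaps Elavl3 on the same strand.

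For Elavl4 the log2 fold change in FLASH against control was -1.13 ± 0.47 (adjusted p = 0.0657). Stmn2, a microtubule regulator of growing axons, had -1.00 ± 0.40 (adjusted p = 0.0577). Nefl, the light neurofilament chain, had -1.12 ± 0.44 (adjusted p = 0.0538). These 3 were near the threshold, and each passed without control 6, the control library with the lowest neuronal level. Nefl and its partner Nefm overlap on opposite strands of chromosome 14.

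The other general neuronal genes did not pass in any comparison. Tubb3 (neuronal tubulin) averaged 2.57 CPM in FLASH, 2.21 in CONV and 3.82 in control. Prph (peripherin, the intermediate filament of peripheral neurons) averaged 2.82 CPM in FLASH, 3.60 in CONV and 4.78 in control. Both irradiated means were thus below the control mean, and so they were for the synaptic vesicle genes and the medium neurofilament. Snap25, a part of the vesicle fusion machinery, averaged 3.18 CPM in FLASH, 3.52 in CONV and 4.52 in control. Syt1, the calcium sensor of release, averaged 1.67 CPM in FLASH, 1.51 in CONV and 3.49 in control. Nefm averaged 0.277 CPM in FLASH, 0.302 in CONV and 0.495 in control. The remaining genes of this kind had no common direction. Uchl1, a ubiquitin hydrolase abundant in neurons, averaged 8.46 CPM in FLASH, 8.30 in CONV and 7.84 in control. Hand2, a transcription factor of neural crest derivatives, averaged 4.82 CPM in FLASH, 6.66 in CONV and 6.69 in control. Phox2a, a determinant of autonomic neurons, averaged 0.419 CPM in FLASH, 0.232 in CONV and 0.332 in control, with 2 to 30 estimated counts per FLASH library.

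Ret, the receptor for glial-derived neurotrophic factor and its relatives, stood apart through 1 library. It was 40.0 CPM in FLASH 7 (1126 estimated counts), while the other FLASH libraries ranged from 7.33 to 15.8 CPM. CONV replicates 2, 3, 5, 6 and 7 had 8.06, 9.90, 10.5, 7.49 and 4.89 CPM, and control ranged from 2.08 to 12.2 CPM with a median of 8.84. The groups overlapped. The log2 fold change was 0.89 ± 0.41 in FLASH against control (adjusted p = 0.0985) and 0.86 ± 0.44 in FLASH against CONV (adjusted p = 0.173), and without FLASH 7 the value against control was 0.41 ± 0.34 (adjusted p = 0.355). It passed in FLASH against control under DESeq2 and with an offset for GC content and transcript length.

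**Figure D2:**
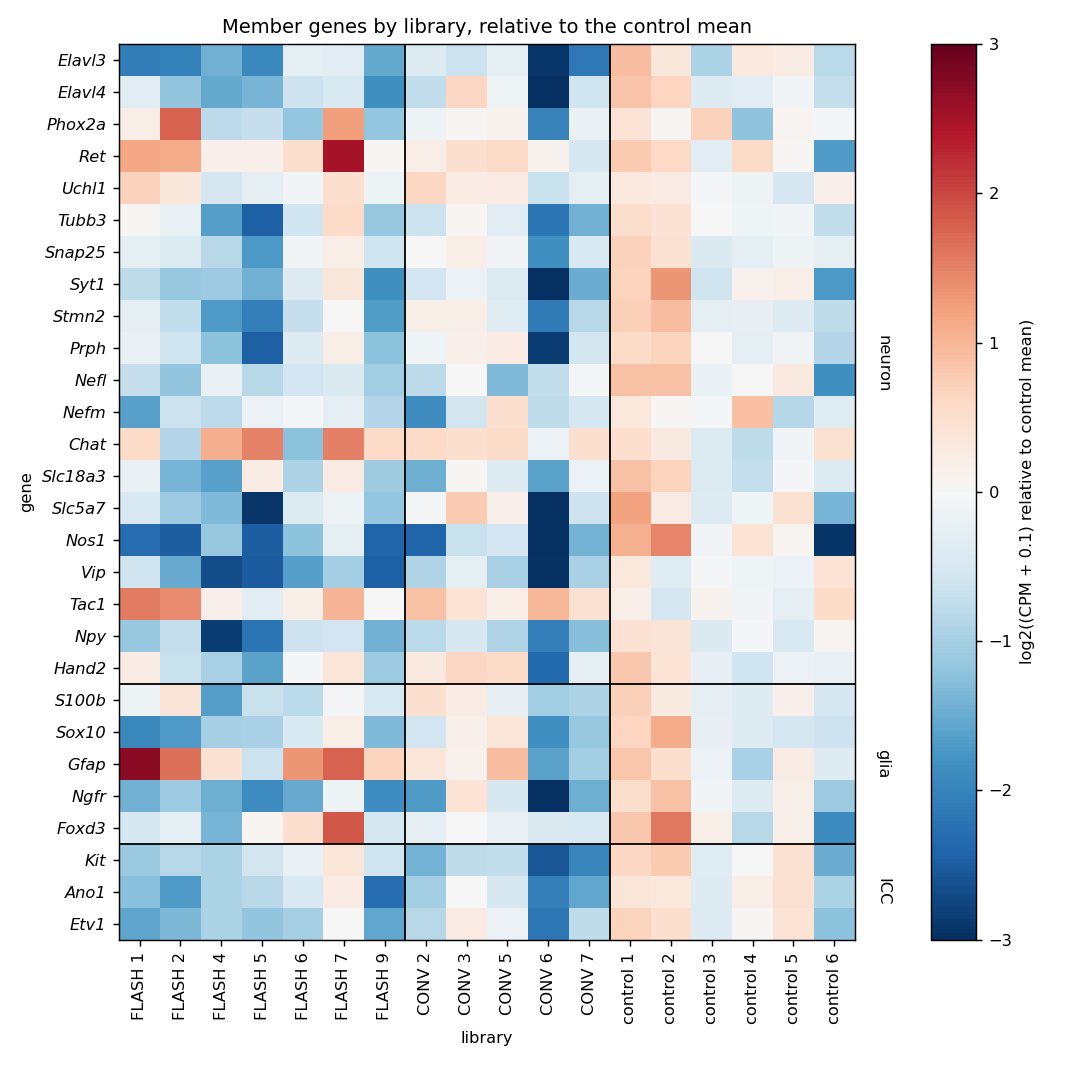
Heat map of the 28 tested members (rows, grouped as neuron, glia and interstitial cells of Cajal, ICC) in 18 libraries (columns: FLASH, CONV, control); colour gives log2 of CPM + 0.1 relative to the control mean, red higher and blue lower, cut off at 3 either way. CONV 6 is the bluest column, Gfap, Ret and Tac1 are red in several FLASH libraries, and control 6 is bluer than the other controls.

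The glial genes split. Gfap encodes the filament protein of glia (chr11:102887336-102900912) and rose in FLASH against control (log2 fold change 1.43 ± 0.52, adjusted p = 0.0364). It ranged from 0.441 to 5.50 CPM in FLASH with a median of 2.05. It was 0.995, 0.837, 1.53, 0.181 and 0.319 CPM in CONV replicates 2, 3, 5, 6 and 7, and ranged from 0.335 to 1.41 CPM in control with a median of 0.775. FLASH 1, 2, 6 and 7 lay above every control library, and FLASH 4, 5 and 9 lay within the control range. The highest was FLASH 1, the FLASH library with the most negative slope of log2 expression on transcript length (-0.34). The FLASH call was lost with scaling by library totals, under limma-voom, and without FLASH 1, 2 or 7 or control 3, 4, 5 or 6, with adjusted p up to 0.118 over all settings. In FLASH against CONV the value was 1.53 ± 0.56 (adjusted p = 0.0605), and it passed under DESeq2, with the offset for length and GC content, and without FLASH 4, FLASH 5 or CONV 5. The predicted gene Gm26668 overlaps Gfap on the opposite strand.

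Ngfr, the low-affinity neurotrophin receptor p75 of glia and Schwann cells (chr11:95568818-95587735), went the other way. It ranged from 1.03 to 3.66 CPM in FLASH with a median of 1.41. It was 1.20, 5.51, 2.90, 0.316 and 1.42 CPM in CONV replicates 2, 3, 5, 6 and 7, and ranged from 1.86 to 7.59 CPM in control with a median of 4.24. FLASH 2 and FLASH 7 overlapped the control range. Ngfr fell in FLASH against control (log2 fold change -1.40 ± 0.47, adjusted p = 0.0251), and the call was lost without FLASH 9, control 1 or control 2. In CONV against control the value was -0.97 ± 0.52 (adjusted p = 0.168), and it passed without CONV 3 (adjusted p = 0.0311).

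Sox10, the transcription factor that keeps glial identity, had a log2 fold change of -1.12 ± 0.47 in FLASH against control (adjusted p = 0.0666), and it passed without FLASH 7 or without control 6. S100b, a calcium-binding protein of glia, averaged 0.570 CPM in FLASH, 0.662 in CONV and 0.802 in control and did not pass. Foxd3, a neural crest factor, averaged 0.370 CPM in FLASH, 0.214 in CONV and 0.395 in control and did not pass. The FLASH mean of Foxd3 rests on FLASH 7, which had 1.28 CPM against 0.0440 to 0.434 CPM in the other FLASH libraries. Erbb4, a neuregulin receptor, was not tested: it had at most 1 estimated count per FLASH library, 3 per CONV library and 4 per control library.

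Interstitial cells of Cajal are marked by Kit, the stem cell factor receptor they need to persist, Ano1, the chloride channel behind the slow wave, and Etv1, a transcription factor of those in muscle. Kit (chr5:75574916-75656722) ranged from 7.46 to 20.9 CPM in FLASH with a median of 10.7. It was 5.97, 9.49, 9.72, 2.66 and 4.01 CPM in CONV replicates 2, 3, 5, 6 and 7, and ranged from 5.69 to 28.1 CPM in control with a median of 19.2. The other 5 controls, without control 6, had 12.6 CPM or more, above every CONV library. Kit fell in CONV against control (log2 fold change -1.52 ± 0.40, adjusted p = 0.0120), which held in all 28 alternative settings, from -1.73 to -1.25. In FLASH against control the value was -0.65 ± 0.35 (adjusted p = 0.150). It passed there with library totals, without control 6, and without control 6, CONV 6 and FLASH 1 together. FLASH and CONV differed by 0.87 ± 0.38 (adjusted p = 0.112), which did not pass in any of the 28 settings, so a difference in Kit between the dose rates was not shown.

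Etv1 (chr12:38779380-38870484) ranged from 1.81 to 5.54 CPM in FLASH with a median of 2.40. It was 3.09, 6.63, 4.91, 1.17 and 3.26 CPM in CONV replicates 2, 3, 5, 6 and 7, and ranged from 2.34 to 8.97 CPM in control with a median of 6.61. The FLASH libraries overlapped control through control 6 and FLASH 7. Etv1 fell in FLASH against control (log2 fold change -1.15 ± 0.37, adjusted p = 0.0193), a call lost without control 1 or control 2. In CONV against control it had -0.68 ± 0.40 (adjusted p = 0.213). Ano1 had -0.93 ± 0.38 in FLASH against control (adjusted p = 0.0607) and -0.93 ± 0.42 in CONV against control (adjusted p = 0.113). It passed in FLASH in 8 of 28 settings, among them without FLASH 7, CONV 6 or control 6, and in CONV without CONV 3 or control 6.

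**Figure D3:**
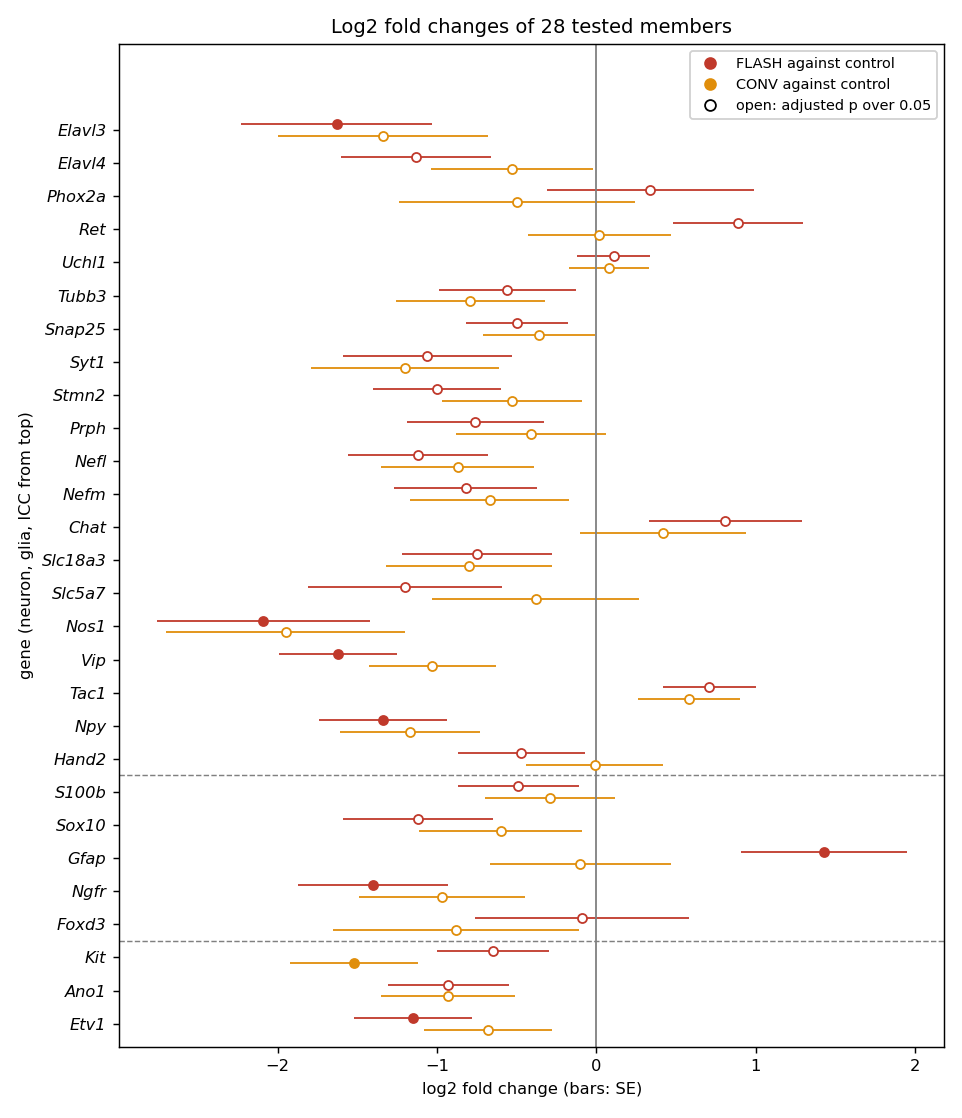
Log2 fold change (x axis) of the 28 tested members (y axis, neuron, glia and interstitial cells of Cajal from top to bottom) in FLASH against control (red, upper point of each row) and CONV against control (orange, lower point); bars give the SE, and filled points passed. Most points lie left of 0, and Gfap, Ret, Chat, Tac1, Phox2a and Uchl1 lie right of it after FLASH.

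Taken by class, 4 of the 20 neuronal genes fell in FLASH against control and none rose. Among all tested genes 21.0% fell and 16.7% rose, so the count that fell is near the share of all genes. The median log2 fold change of the 20 was -0.79, against -0.07 over all tested genes. At an unadjusted p of at most 0.05, 7 of the 20 were lower, and 26.0% of all genes were. In CONV against control none of the 20 passed in edgeR, where 12.0% of all genes fell. At an unadjusted p of at most 0.05, 3 of the 20 were lower, as were 21.1% of all genes. DESeq2 called 3 of the 20 and 28.7% of all genes, and limma-voom 1 of the 20 and 22.2% of all genes. The median was -0.53 against -0.04 over all genes. Of the 5 tested glial genes, 1 rose and 1 fell in FLASH against control (median -0.49). None passed in CONV against control, in edgeR, DESeq2 or limma-voom, and none had an unadjusted p of at most 0.05 (median -0.60). Of the 3 genes of interstitial cells, 1 fell in each comparison with control, with a median of -0.93 in both. Over all members, 22 of 28 had a log2 fold change below 0 in FLASH against control, as 54.1% of all genes did. In CONV against control 24 of 28 did, against 52.4% of all genes. FLASH and CONV share the control libraries, so the signs in these comparisons are not independent of each other.

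In FLASH against CONV no member passed in edgeR. At an unadjusted p of at most 0.05 there were 2, Gfap and Kit, both higher in FLASH, where 34.3% of all genes reached it and 16.9% were higher. DESeq2 called 1 member, Gfap, and 25.2% of all genes. Limma-voom called no member and 20.1% of all genes. The members had a median log2 fold change of -0.15, against -0.02 over all genes, and ranged from -0.82 to 1.53. A difference between the dose rates was thus not detected in the members at this depth and number of libraries, which does not show that they acted alike.

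Length-scaled levels (mean CPM per kb of the longest annotated transcript) ordered the members differently in the 3 groups. After FLASH, Uchl1 (7.19), Tac1 (5.49) and Ret (2.72) led, and in CONV Uchl1 (7.05), Tac1 (5.03) and Vip (3.27) led. The place of Ret rests on FLASH 7: without that library Ret was at 1.96, below Vip, and by medians over all FLASH libraries Ret (1.85) was below Vip (2.07) and Kit (2.05). In control Vip (6.70) and Uchl1 (6.66) led, ahead of Kit (3.50) and Tac1 (3.35). At the low end in control stood Elavl3 (0.147), Nefm (0.135), Chat (0.120) and Erbb4 (0.00258). Vip was thus at 2.17 per kb after FLASH and 6.70 in control, while Uchl1 was at 7.19 after FLASH and 6.66 in control. By medians Uchl1 led in all 3 groups (6.14 in FLASH, 7.67 in CONV and 6.83 in control). The control median of Vip was 6.18, so its first place in control holds for means only. The FLASH median of Tac1 was 3.72.

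The means of the 3 classes and of the muscle genes put the same libraries at their ends. The mean log2 CPM of the 20 neuronal genes was 0.46 ± 0.55 in FLASH, 0.50 ± 0.86 in CONV and 1.14 ± 0.49 in control (SD over libraries). That of the 6 glial genes was -0.86 ± 0.50 in FLASH, -0.96 ± 0.61 in CONV and -0.53 ± 0.68 in control. That of the 3 interstitial genes was 2.35 ± 0.58 in FLASH, 2.15 ± 0.83 in CONV and 3.25 ± 0.70 in control. In all 3 classes FLASH 7 was the highest FLASH library, CONV 6 the lowest CONV library, control 1 the highest control library and control 6 the lowest. CONV 6 had the lowest mean of all 18 libraries in each class. The same libraries held the same places for 14 smooth muscle genes. Control 6 and CONV 6 also had the most negative slopes of expression on transcript length (-0.41 and -0.43).

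**Figure D4:**
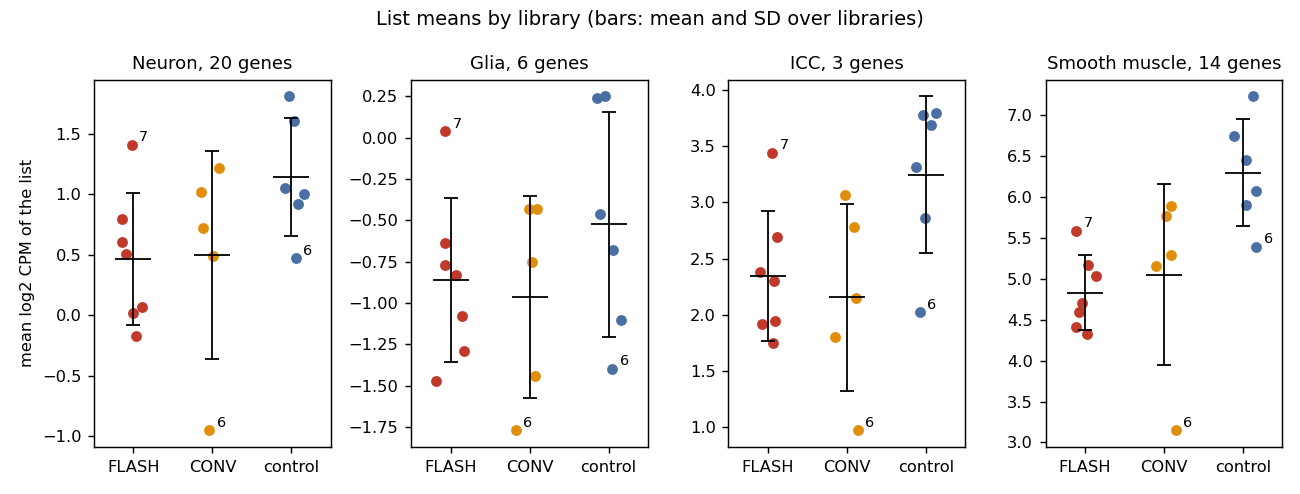
Mean log2 CPM of the neuronal, glial and interstitial (ICC) members and of 14 smooth muscle genes, 1 point per library, with FLASH, CONV and control from left to right in each panel; bars give the mean and SD, and the numbers mark FLASH 7, CONV 6 and control 6. FLASH 7 tops its group and CONV 6 and control 6 are lowest in theirs in all 4 panels.

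Smooth muscle genes had larger median differences than the members. All 14 smooth muscle genes fell in FLASH against control, where 21.0% of all genes did, with a median log2 fold change of -1.44. In CONV against control 7 of 14 fell, where 12.0% of all genes did, with a median of -1.17. The FLASH count was 9 without control 1, and the CONV count was 2 without CONV 2, CONV 6 or control 1 and 4 without CONV 7, control 2 or control 5. Acta2, smooth muscle actin, had -1.37 ± 0.36 in FLASH (adjusted p = 0.00550) and -1.43 ± 0.40 in CONV (adjusted p = 0.0171), and both held in all 28 settings. The summed level of the list was 674 to 1596 CPM in FLASH, 316 to 1710 CPM in CONV and 1610 to 4813 CPM in control. Of 7 fibroblast genes, 4 fell in FLASH and 2 in CONV (1 without CONV 2, 6 or 7 or control 1, 2, 4 or 5), beside the same 21.0% and 12.0% of all genes. The neuronal mean minus the smooth muscle mean, in log2 CPM, was -4.37 ± 0.27 in FLASH, -4.55 ± 0.26 in CONV and -5.16 ± 0.22 in control (SD). Each irradiated library had a smaller gap than each control library, since FLASH reached down to -4.88, CONV to -4.75 and control up to -4.90. The glial mean minus the smooth muscle mean was -5.69 ± 0.23 in FLASH, -6.01 ± 0.65 in CONV and -6.83 ± 0.18 in control, where CONV reached down to -6.60 and control up to -6.51. For the interstitial genes it was -2.49 ± 0.37 in FLASH, -2.90 ± 0.45 in CONV and -3.06 ± 0.34 in control, and both irradiated groups overlapped control (FLASH -3.12 to -2.03, CONV -3.35 to -2.18, control -3.43 to -2.58). These means use a prior count of 2, which pulls scarce genes towards no change more than abundant ones, and how much of the members' shift follows the amount of muscle in each piece was not tested.

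Further genes of the same cell types, kept as a separate list, were described by counts beside the shares of all genes, of which 21.0% fell and 16.7% rose in FLASH against control and 12.0% fell in CONV against control. Of 22 further neuronal genes tested, 8 fell and 1 rose in FLASH against control, and 4 fell in CONV against control. The share that passed was 40.9% in FLASH, near the 37.7% of all genes, and 18.2% in CONV, below the 22.2% of all genes. Leaving out 1 library gave 4 to 12 that fell in FLASH (4 or 5 without FLASH 2, 4, 6 or 9 or control 1 or 2) and 1 to 8 in CONV (1 or 2 without CONV 2, 6 or 7 or control 1, 2, 4 or 5, and 8 without control 6). L1cam, a cell adhesion molecule of axons, was 3.25 to 10.8 CPM in FLASH with a median of 5.02, and 2.25, 4.36, 4.95, 0.903 and 3.12 CPM in CONV replicates 2, 3, 5, 6 and 7. In control it was 7.26 to 48.4 CPM with a median of 37.0, and the lowest control was control 6. The control mean of L1cam (31.6 CPM) was above that of every member, of which Kit (18.3 CPM) had the highest. Which cells the L1cam RNA came from was not tested. The log2 fold change of L1cam was -2.51 ± 0.41 in FLASH (adjusted p = 1.2e-04) and -3.33 ± 0.48 in CONV (adjusted p = 1.5e-04), and both held in all 28 settings. Mapt, the axonal microtubule protein tau, fell in both (-1.21 ± 0.35 in FLASH, adjusted p = 0.0107, and -1.36 ± 0.39 in CONV, adjusted p = 0.0195). So did Ncam1, the neural cell adhesion molecule (-1.65 ± 0.47 in FLASH, adjusted p = 0.0108, and -1.64 ± 0.53 in CONV, adjusted p = 0.0343). The CONV calls of Mapt and Ncam1 were lost without CONV 2 or CONV 6, and that of Ncam1 also without CONV 7 or control 1, 2, 4 or 5.

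Ache, acetylcholinesterase, was the further neuronal gene that rose. It was 3.26 to 18.7 CPM in FLASH with a median of 5.74. It was 3.40, 2.48, 2.64, 4.15 and 0.851 CPM in CONV replicates 2, 3, 5, 6 and 7, and 1.46 to 4.13 CPM in control with a median of 2.84. FLASH 7 was the highest library, as for Ret. Ache rose in FLASH against control (log2 fold change 1.42 ± 0.39, adjusted p = 0.00770) and in FLASH against CONV (1.49 ± 0.42, adjusted p = 0.0175), and neither call was lost when any library was left out. Both calls were lost with a replicate block (adjusted p = 0.0907 against control and 0.118 against CONV).

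Of 10 further glial genes tested, Fabp7 and Ptprz1 fell in FLASH against control and Fabp7 in CONV against control. Fabp7, a fatty acid binding protein of immature glia, had -2.49 ± 0.64 in FLASH (adjusted p = 0.00485) and -2.39 ± 0.70 in CONV (adjusted p = 0.0225). The CONV call was lost without CONV 2, CONV 6 or control 2. In FLASH against CONV, Mbp (myelin basic protein) rose by 0.67 ± 0.23 (adjusted p = 0.0469) and Lgi4, a secreted ligand of glia, fell (-1.08 ± 0.33, adjusted p = 0.0294). Both were lost in several leave-one-out fits: Mbp without FLASH 1, 2, 6 or 7, CONV 2, 5, 6 or 7 or control 3 or 4, and Lgi4 without FLASH 6 or CONV 2, 3 or 5.

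Of 7 further genes of interstitial cells, 6 fell in FLASH against control and 2 in CONV against control, where leaving out 1 library gave 0 to 6 (0 without CONV 6, CONV 7 or control 1, 1 without FLASH 4 or 6, CONV 2 or control 2, 3, 4 or 5, and 6 without control 6). Gucy1b1 and Gucy1a1 encode the subunits of the nitric oxide receptor, which smooth muscle also carries. Both fell in FLASH against control, with a log2 fold change of -1.45 ± 0.21 for Gucy1b1 (adjusted p = 3.7e-05) and -1.47 ± 0.32 for Gucy1a1 (adjusted p = 0.00147). Gucy1b1 was also lower in FLASH than in CONV (-0.95 ± 0.22, adjusted p = 0.00572).

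Among the ligands and receptors that sustain these cells, Kitl passed in every comparison. Kitl, the stem cell factor that activates Kit, was 33.3 to 51.4 CPM in FLASH with a median of 40.1. It was 49.6, 67.2, 63.6, 51.4 and 87.9 CPM in CONV replicates 2, 3, 5, 6 and 7, and 79.3 to 113 CPM in control with a median of 102. FLASH lay wholly below control. CONV overlapped both, with CONV 2 inside the FLASH range and CONV 7 inside the control range. Kitl fell in FLASH against control (-1.26 ± 0.14, adjusted p = 3.6e-06), in CONV against control (-0.63 ± 0.16, adjusted p = 0.00873) and in FLASH against CONV (-0.63 ± 0.15, adjusted p = 0.00700). All 3 calls held in all 28 settings. The order of the Kitl means was thus FLASH, CONV, control from low to high, while the mean of Kit was lowest in CONV (6.37 CPM, against 11.7 CPM in FLASH and 18.3 CPM in control).

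Of the 15 trophic genes tested, Kitl included, 6 fell and 2 rose in FLASH against control and 3 fell in CONV against control (1 without CONV 2 or CONV 6 and 5 without control 6), beside the shares of all genes given above. Edn3, endothelin 3, a factor for migrating crest progenitors in development, which was also counted among the further interstitial genes, fell in FLASH (-1.28 ± 0.25, adjusted p = 5.8e-04) and in CONV (-0.78 ± 0.27, adjusted p = 0.0456). The CONV call was lost when any CONV library was left out, and also without FLASH 4, 6 or 7 or control 1, 3, 4 or 5. Its receptor Ednrb fell in CONV (-1.12 ± 0.34, adjusted p = 0.0250), a call lost without CONV 2, CONV 6, control 2 or control 4. Gfra3, the artemin receptor subunit, fell in FLASH (-1.60 ± 0.29, adjusted p = 3.7e-04). Gfra2, named after its values were seen, had the most negative value of the trophic genes in FLASH against control (-2.60 ± 0.58, adjusted p = 0.00193). The genes that rose, named after their values were seen, were Nrtn, a Ret ligand (0.99 ± 0.37, adjusted p = 0.0426), and Nrg1, neuregulin 1 (0.81 ± 0.23, adjusted p = 0.0115). The rise of Nrtn was lost in 14 of 28 settings, among them without FLASH 1, 2, 7 or 9 or control 3, 4 or 5. Nrg1 lost its call with library totals.

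Markers of other cells that share members were read beside them. Of 14 enteroendocrine genes 5 rose in FLASH against control, where 16.7% of all genes did, and 6 in FLASH against CONV, where 9.88% did. Leaving out 1 library gave 4 to 6 in FLASH against control. Between FLASH and CONV it gave 1 to 6, with 1 without CONV 2, 2 without FLASH 2 or CONV 7, and 3 without FLASH 7, CONV 3 or CONV 5. Chga (chromogranin A) was higher by 0.74 ± 0.21 in FLASH against control (adjusted p = 0.00915) and by 0.81 ± 0.22 against CONV (adjusted p = 0.0152), and both calls were lost with library totals. The summed level of the 14 was 404 to 488 CPM in FLASH, 299 to 360 CPM in CONV and 272 to 396 CPM in control, so the FLASH libraries lay above all others. The 4 members known from these cells did not share a direction in FLASH against control and none passed: Tac1 and Ret had the values above 0 given before, Uchl1 had 0.11 ± 0.23 and Snap25 had -0.50 ± 0.32. Tuft cell genes, beside Chat, rose in 3 of 9 cases in FLASH against control and in 1 of 9 in CONV, where 10.2% of all genes rose. The FLASH count was 1 without FLASH 5. They had summed levels of 47.3 to 187 CPM in FLASH, 48.2 to 77.3 CPM in CONV and 48.1 to 79.1 CPM in control. The highest was FLASH 5 alone, and the next FLASH library had 86.0 CPM. Of 3 innate lymphoid genes tested, beside Ret, 3 fell in FLASH against control (21.0% of all genes did) and 2 in CONV against control (12.0% did, and without CONV 7, which let more genes be tested, 4 fell). The 6 genes of that list, untested ones included, had summed levels of 3.52 to 7.95 CPM in FLASH, 1.13 to 4.29 CPM in CONV and 7.85 to 15.3 CPM in control. The part of these cells in the members' values was not tested.

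Mast cell genes were read beside Kit. Of 4 tested, 2 fell and 1 rose in FLASH against control (21.0% of all genes fell and 16.7% rose), and 3 fell and 1 rose in CONV (12.0% and 10.2% of all genes). In FLASH against CONV 3 of the 4 were called higher, Mcpt1, Mcpt2 and Hdc, where 9.88% of all genes were. Hdc had a log2 fold change of 1.24 ± 0.36 there (adjusted p = 0.0212). The summed level of the mast cell list was 1.77 to 4.65 CPM in FLASH, 0.858 to 1.52 CPM in CONV and 3.81 to 14.4 CPM in control. The mucosal protease gene Mcpt2 was at 0 in all 5 CONV libraries, 0.0981 to 0.682 CPM in FLASH and 0.893 to 2.55 CPM in control. Cma1, the chymase gene, went the other way and passed higher against control in both irradiated groups (adjusted p = 1.9e-05 in FLASH and 0.00148 in CONV). It was 0.0981 to 2.01 CPM in FLASH and 0.105 to 0.521 CPM in CONV, and in control 5 of 6 libraries were at 0 and 1 held a single estimated count. Of the other defining genes, named because they define the type, Tpsab1 was at 0 in every library, Fcer1a was at 0 in all FLASH libraries and in all CONV libraries but CONV 3, and Cpa3 did not exceed 0.567 CPM in any library. The summed mast cell level and the mean of Kit were thus both lowest in CONV, although Cma1 was not. In control the summed mast cell level had a median of 7.63 CPM over 10 genes, and Kit had a median of 19.2 CPM. Levels of different genes cannot give the share of Kit RNA that came from mast cells, which was not tested.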

How the data were processed

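RNA of whole jejunum (250 ng) was sequenced from stranded mRNA libraries as single reads of 100 bp, per the labels' protocols. The submitters' processing notes name STAR, Salmon, edgeR 3.40.2, limma 3.54.2 and the build mm10; which tool counted, and with what strand setting, is not given in the sources used here. The authors deposited expected counts (estimated reads per gene) for 54532 genes, of which 73.3 to 76.9% of the nonzero values per library were whole; all were rounded. A second deposited table of normalized values was not used. Totals per library were 23.08 to 30.2 M in FLASH, 19.94 to 26.99 M in CONV and 24.34 to 27.77 M in control. Within each group no libraries were duplicates (lowest chi-square per degree of freedom 25.1 over pairs of the same group). This check does not cover pairs across groups.

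Groups came from the labels. All 18 libraries entered 1 edgeR fit (version 4.0.16 under R 4.3.3), tested by quasi-likelihood (filterByExpr, TMM factors, robust dispersion), with the Benjamini-Hochberg adjustment over 16257 genes. The SE was derived by dividing the size of the log2 fold change by the root of F. CPM uses TMM-scaled totals, and for list means a prior count of 2 was added before taking log2 CPM. The code was checked on simulated data. The members and lists were chosen with earlier results of these data known. All members were named, and from each other list up to 3 genes with the smallest p per comparison, plus markers shared with members. Gfra2 and Nrtn of the trophic genes were named outside this rule. Lists were described by counts and medians and not tested. A few genes of the lists other than the members are not reported here and stay out of the lists' counts and levels.

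Alternatives were DESeq2 size factors, library totals, a looser filter (1 count) and a stricter one (mean of 1 CPM), DESeq2 1.42.0, limma-voom (limma 3.58.1), fits of 2 groups, a replicate block, an offset for length and GC content (spline, 4 degrees of freedom), leaving out each library, and leaving out control 6, CONV 6 and FLASH 1 together. Gene positions are from the annotation of mm10, and upstream sequences are from RefSeq. Figures were drawn with matplotlib 3.10.9 and tables with pandas 2.3.3 (Python 3.11.15).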

Additional observations from a re-analysis of the deposited data

Results flagged for a closer look

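For each of the 28 tested members, the highest and the lowest library of each group were compared with the nearest other library of that group. Of 84 groups checked, 7 had a library farther out than Dixon's criterion allows. Chance gives about 1 in 20 such groups only where values are normally distributed and groups are independent. These groups share the same 18 libraries, so the 7 cannot be set against that rate. 5 of the 7 are high values in FLASH 7. Ret was 40.0 CPM in FLASH 7, with the next FLASH library at 15.8 CPM. Nos1 was 1.95 CPM there, with the next at 1.01 CPM. Ngfr was 3.66 CPM, with the next at 1.88 CPM, and Foxd3 was 1.28 CPM, with the next at 0.434 CPM. Etv1 was 5.54 CPM, with the next at 2.86 CPM. FLASH 7 was also the FLASH library with the highest mean of the smooth muscle genes. The other 2 are low values in CONV 6: Phox2a was at 0, with the next CONV library at 0.248 CPM, and Chat was 0.271 CPM, with the next at 0.488 CPM.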

How the results depend on the processing

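None of the 67 log2 fold changes followed for single genes changed sign in any alternative: of 1862 recomputed values, 1648 kept their side of the threshold, 152 lost a call and 62 gained one. The count of members that passed in CONV against control, 1, was 3 with library totals, 4 with DESeq2 and 2 each with limma-voom, with only both groups compared, with the offset for length and GC content, and without control 6, CONV 6 and FLASH 1 together. Leaving out 1 library gave 1 to 5, the highest without CONV 3 (where 23.4% of all genes passed), with 4 without control 6 (40.1%) and 2 without FLASH 1 or FLASH 4. In FLASH against control, 7 became 17 with library totals (where 48.8% of all genes passed), 11 with DESeq2 (41.4%), 12 with the offset (45.5%) and 14 without the 3 libraries together (43.9%). Leaving out 1 library gave 3 to 14, with 4 without control 1 (where 32.0% of all genes passed), 3 without control 2 (31.5%) and 14 without control 6 (44.3%). In FLASH against CONV, 0 became 1 with DESeq2 and with the offset (Gfap) and without the 3 libraries together (Vip), and leaving out 1 library gave 0 to 1 (Gfap, without FLASH 4, FLASH 5 or CONV 5). The count of all genes that passed in CONV against control, 3615, ran from 1869 (without CONV 6) to 6493 (without control 6) when 1 library was left out, with 2171 without CONV 2, 2277 without control 2 and 2359 without control 5. In FLASH against control it ran from 5074 to 7164 and in FLASH against CONV from 2171 to 3993. The cause of these shifts was not tested.

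With library totals, all genes had a median log2 fold change of -0.44 in FLASH against control, -0.25 in CONV against control and -0.18 in FLASH against CONV. The share of calls that were higher was then 17.4, 24.2 and 24.4% in these comparisons, against 44.3, 46.0 and 49.9% with TMM factors. The 17 members called in FLASH against control were tested against 0 and not against this lowered median. The members' own median there was -1.16 with library totals, beside -0.44 over all genes. With TMM factors it was -0.79, beside -0.07 over all genes.

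The labels do not say whether replicate numbers pair the libraries. Deviations of same-numbered libraries correlated between -0.27 and 0.61, the highest for CONV 6 and control 6. In CONV against control 2 of 8 libraries correlated best with their own number, in FLASH against control 2 of 10 and in FLASH against CONV 0 of 8. So few matches cannot exclude a shared day, litter or batch, and the libraries were treated as unpaired. With a replicate block 1 member passed in FLASH against control (Vip) and 1 in CONV against control (Kit), and 1569 genes in all passed in FLASH against CONV. Outside the members, the block lost both calls of Ache. It also lost those of Nrg1, Nrtn and Ptprz1 in FLASH against control and of Fabp7 and Edn3 in CONV against control. In FLASH against CONV it lost those of Gucy1b1, Chga, Mbp and Lgi4. The calls of Kitl, L1cam, Mapt and Ncam1 held with the block. At this depth the members with few counts limit what can be seen: the SE of the FLASH log2 fold change was 0.67 for Nos1 and 0.60 for Elavl3, against 0.23 for Uchl1.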
